A study of Mus musculus with 6 samples.

Results

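The genes described here encode the subunits of the receptors for glutamate and GABA, the main excitatory and inhibitory transmitters of the brain. They were chosen by symbol, as the genes of AMPA, kainate, NMDA, delta and metabotropic glutamate receptors and of GABA-A and GABA-B receptors, with 1 probe set for each gene, the one of highest mean intensity. Of 22180 genes that had a probe set with 1 gene symbol, 41 met this rule. Receptor genes without such a probe set were not analysed here.

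The values come from macrodissected demyelinating brain lesions, 1 Affymetrix array for each lesion. There were 3 lesions of transgenic mice, whose transgene allows non-proliferating GFAP-positive astrocytes to be eliminated, and 3 lesions of wild type mice. All mice received LPC, which causes local loss of myelin, at an age of 5 to 6 weeks. Both genotypes carry the same treatment label, an injection of CID 48 hours after the lesion, which sets off the ablation, and both were analysed 7 days after the lesion. The labels name neither the strain nor the construct. Whether each lesion is a separate animal is not stated either, and p-values then measure no more than the spread between these samples.

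AMPA, kainate and NMDA receptors are cation channels that carry fast excitatory signals, while metabotropic glutamate receptors act through G proteins and adjust release and excitability. GABA-A receptors are chloride channels, and GABA-B receptors are paired G protein-coupled subunits. Most of these genes are expressed by neurons, and some, such as Grm3, also by astrocytes or oligodendrocyte precursors, so a macrodissected lesion gives the sum over all its cells.

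None of the 41 receptor genes passed an adjusted p of 0.05 in limma, and 0% of all 41345 probe sets did. Their smallest adjusted p was 0.518. At an unadjusted p under 0.05, 3 genes had higher means in transgenic lesions: Grm2, a presynaptic autoreceptor for glutamate, Grin2a, an NMDA receptor subunit of mature synapses, and Gabra3, an alpha subunit of GABA-A receptors. This is 7.32% of the 41 genes, against 8.87% of all probe sets. In the higher direction alone the share of all probe sets was 4.82%, and in the lower direction it was 4.05%, where 0 of the 41 genes stood. Values below are log2 intensities and differences are transgenic minus wild type, from the limma fit across all probe sets. The median standard error over the receptor genes was 0.20, and 95% confidence intervals reached a median of 0.46 to either side, which is 1.37-fold.

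Means were higher in transgenic lesions for 22 of the 41 genes and lower for 19, with a median difference of 0.08, beside -0.01 over all probe sets. Glutamate receptor genes divided evenly, 11 higher and 12 lower, with a median of -0.02. GABA receptor genes were 11 higher and 7 lower, with a median of 0.13. The groups did not overlap in 4 genes with higher transgenic values, Grm2, Grin2a, Gabrq and Gabrr3, and in 1 with lower values, Gria1, the AMPA subunit GluA1. Across all probe sets, 8.54% were separated in the higher direction and 7.6% in the lower, so these counts lie near the background.

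**Figure D1:**
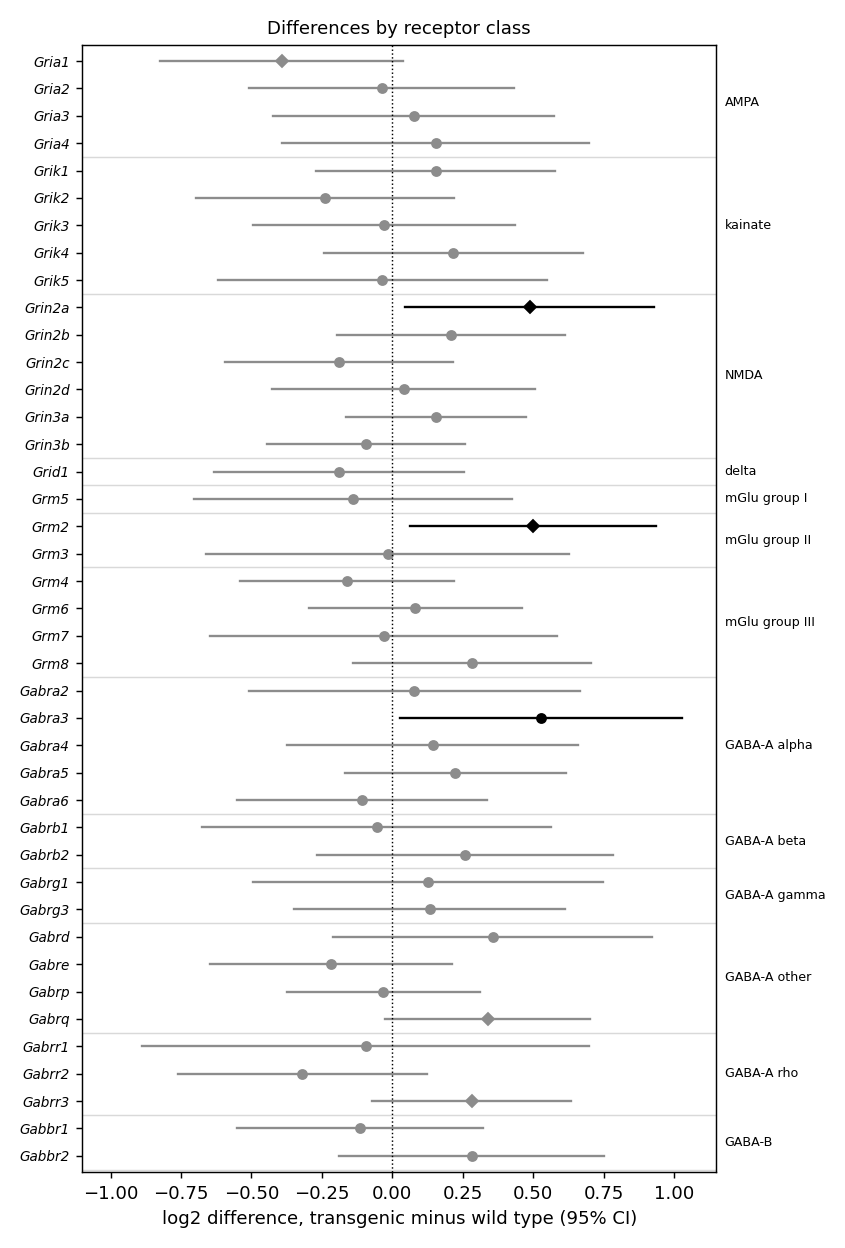
Difference in log2 intensity (transgenic minus wild type) of the 41 receptor genes with its 95% confidence interval from limma, by receptor class. Black marks have an unadjusted p under 0.05, and diamonds mark genes whose groups did not overlap. Grm2, Grin2a and Gabra3 lie highest, between 0.49 and 0.53, and Gria1 lowest at -0.39.

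The arrays differed in their cell type markers. Neuronal marker means were 9.68 to 10.17 in transgenic and 9.65 to 9.81 in wild type lesions, and oligodendrocyte marker means were 8.77 to 9.64 and 10.01 to 10.45. The striatal projection neuron list stood at 6.22, 6.66 and 6.21 in transgenic replicates 1, 2 and 3, against 5.99, 8.17 and 8.75 in wild type replicates 1, 2 and 3. Wild type replicates 2 and 3 thus held striatal transcripts that were lower on the other 4 arrays. Xist, the RNA of the inactive X chromosome, stood at 4.67, 9.14 and 4.42 in transgenic and 9.49, 9.30 and 9.30 in wild type lesions, and Y-linked Uty was high where Xist was low, at 6.37 and 7.17. The astrocyte marker list averaged 7.95 to 8.55 in transgenic and 8.54 to 8.80 in wild type lesions. Gfap, which marks the targeted cells, stood at 8.91, 8.82 and 9.24 in transgenic and 9.83, 9.18 and 9.09 in wild type lesions, and its groups overlapped. In such bulk samples, fewer cells of a type and less RNA per cell cannot be told apart. The part of tissue make-up and sex in the receptor values was not tested, also where such values are set side by side below.

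**Figure D2:**
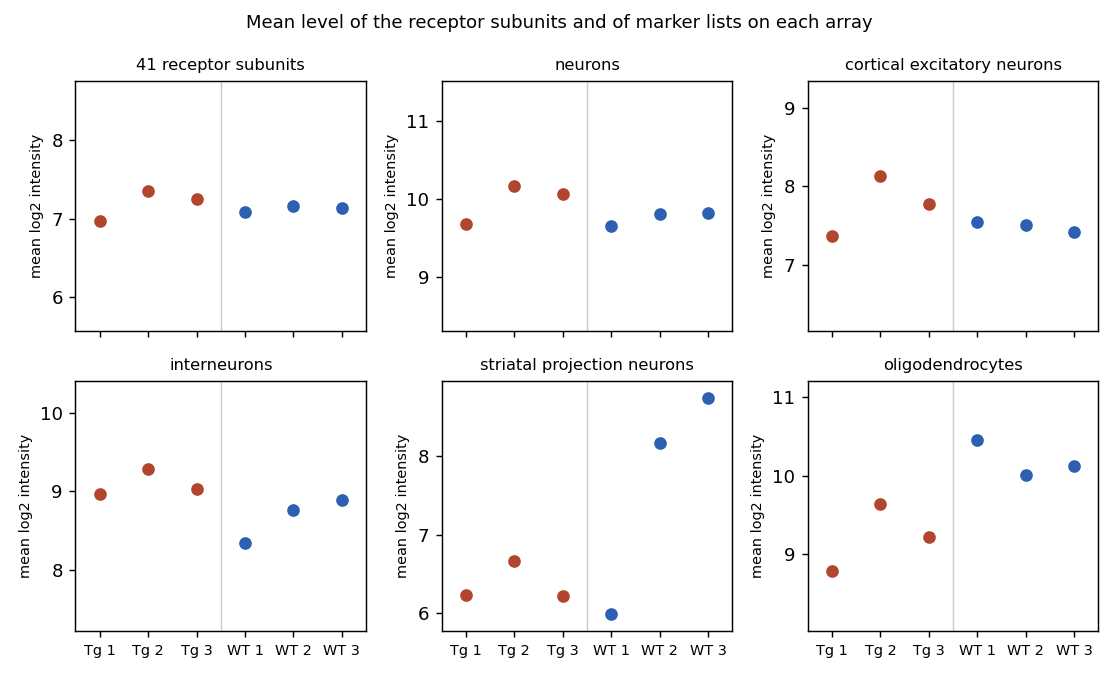
Mean log2 intensity of the 41 receptor genes and of 5 marker lists on each array; red points are transgenic (Tg) and blue points wild type (WT) replicates, and all panels span the same range. The receptor mean lay between 6.97 and 7.35 in transgenic and 7.08 and 7.16 in wild type lesions, while the striatal list ran up to 8.75 in wild type replicate 3.

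Among the transgenic arrays, replicates 1 and 2 held many of the extreme values. Transgenic replicate 1 held the lowest value of the 6 arrays for 20 of the 41 genes (48.8%), against 26.7% of all genes, and transgenic replicate 2 held the highest for 19 (46.3%), against 29.6% of all genes. All 20 of these lowest values fell among the 33 receptor genes that were brighter than the median probe set, and so did all 19 of the highest values. Among all brighter genes, transgenic replicate 1 was lowest in 38.0% and transgenic replicate 2 highest in 40.9%. The SD over 3 arrays was larger in transgenic than in wild type lesions for 34 of the 41 genes (82.9%), against 71.6% of all probe sets. Median SDs were 0.30 in transgenic and 0.14 in wild type lesions. Without transgenic replicate 1, 8 of the 41 genes were higher at an unadjusted p under 0.05 (19.5%, beside 6.05% of all probe sets) and 1, Gabrr2, was lower (beside 6.45%). The 8 were Grm2, Grin2a, Grin2b, Gria4, Grm8, Gabra3, Gabrb2 and Gabbr2. Without transgenic replicate 3 none was higher or lower, beside 4.98% and 4.19% of all probe sets. Without transgenic replicate 2, Gabrq was higher (beside 5.16%) and Gria1 lower (beside 4.92%). Without 1 wild type array, a single gene was higher, beside 2.49% to 3.71% of all probe sets, and none lower, beside 2.42% to 3.05%. None passed the adjusted threshold without any 1 array, although 0.81% of all probe sets did without transgenic replicate 2. The transgenic arrays that remain there had low Xist, at 4.67 and 4.42, and all wild type arrays had high Xist, at 9.30 to 9.49. Sex and genotype cannot be told apart in that comparison. When arrays were weighted by their fit, transgenic replicate 3 had a weight of 7.67, against 0.28 for replicate 1 and 0.26 for replicate 2. The transgenic side of the weighted comparison thus rested mostly on replicate 3. With these weights Grm2, Grin2a, Gabra3 and Gabre passed an adjusted p of 0.05 in limma, as did 6.32% of all probe sets. At an unadjusted p under 0.05, 11 receptor genes were then higher and 3 lower, beside 13.1% and 13% of all probe sets.

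**Figure D3:**
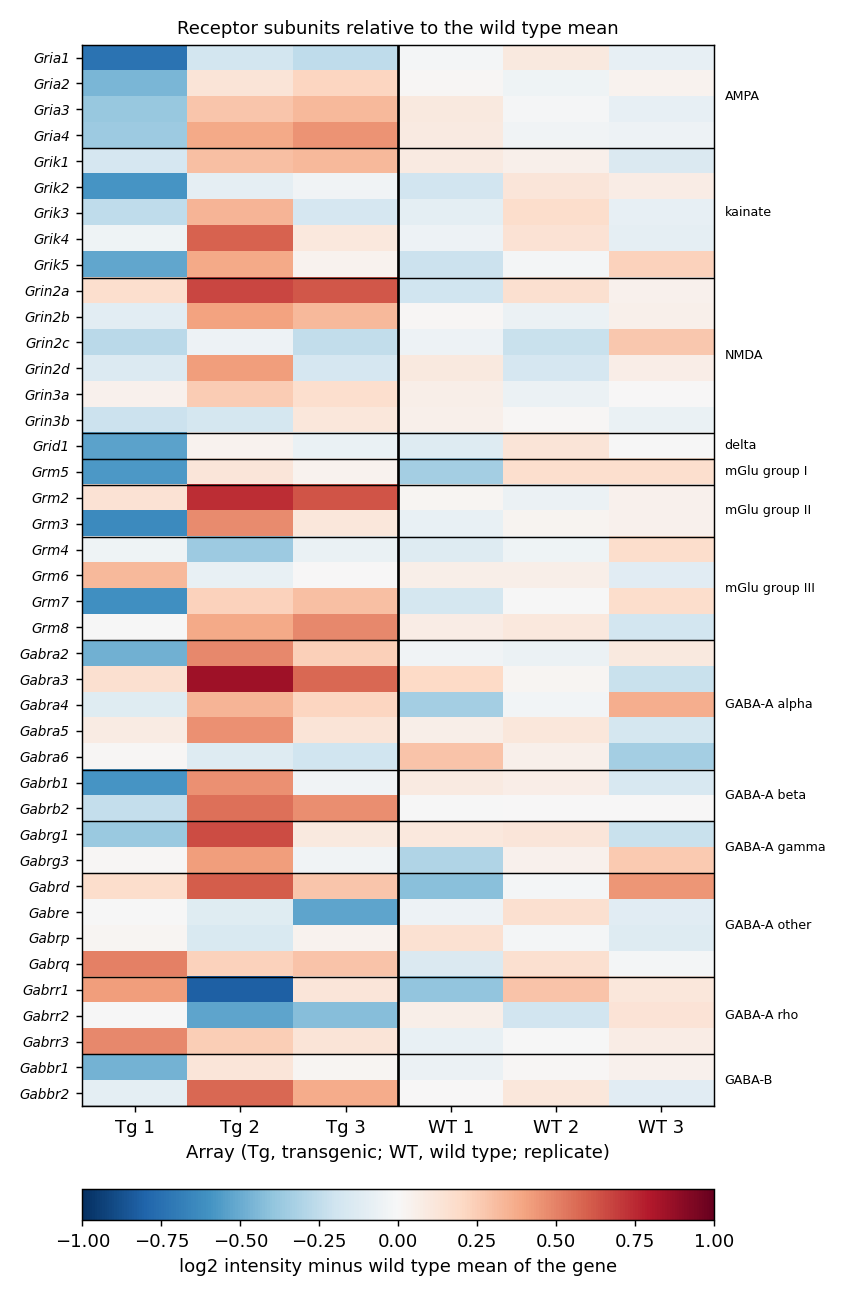
Log2 intensity of each receptor gene minus its wild type mean, with transgenic (Tg) arrays on the left, wild type (WT) arrays on the right and genes grouped by receptor class. Transgenic replicate 1 is blue over most glutamate receptor rows and transgenic replicate 2 red, while the wild type columns stay pale.

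AMPA receptors open first when glutamate is released, and their 4 genes had 2 higher and 2 lower means with a median difference of 0.02. Gria1 stood at 8.53, 9.09 and 9.02 in transgenic lesions and at 9.26, 9.37 and 9.20 in wild type lesions. All 3 transgenic values lay below all 3 wild type values, with replicate 1 far below the other two. The difference was -0.39 (SE 0.18), 1.31-fold lower, at an unadjusted p of 0.069 and an adjusted p of 0.597 in limma. Gria2, whose edited subunit makes AMPA channels nearly impermeable to calcium, stood at 9.96, 10.55 and 10.63 in transgenic and 10.43, 10.37 and 10.45 in wild type lesions. Its groups overlapped, with a transgenic array at either end, and the difference was -0.04 (95% interval -0.51 to 0.43). Gria3, on the X chromosome (difference 0.08, SE 0.21), and Gria4 (0.15, SE 0.23) were also lowest in transgenic replicate 1 and highest in transgenic replicate 3.

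The log2 ratio of Gria1 to Gria2 was also read within each array. Such a ratio sets 2 probe sets against each other, so only its change between arrays has a meaning. It was -1.43, -1.46 and -1.61 in transgenic lesions and -1.17, -1.0 and -1.26 in wild type lesions. The groups did not overlap, which was also so for Gria1 alone, and they differed by -0.36, close to the difference of Gria1 itself. The transgenic SD was 0.10 in place of 0.30, while the wild type SD was 0.13 in place of 0.09. This pair was chosen after its values were seen and has no test.

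Kainate receptors combine Grik1 to Grik3, which can form channels alone, with Grik4 and Grik5, which need one of these as a partner. Their 5 genes had 2 higher and 3 lower means and a median difference of -0.03. Grik2 stood at 7.49, 7.99 and 8.04 in transgenic and 7.89, 8.20 and 8.15 in wild type lesions, a difference of -0.24 (SE 0.20, unadjusted p 0.259). Wild type replicate 1 fell inside the transgenic range, and both higher wild type values were on the arrays with striatal transcripts. Grik4 stood at 6.56, 7.19 and 6.71 in transgenic and 6.55, 6.75 and 6.52 in wild type lesions, a difference of 0.22 that came mostly from transgenic replicate 2. Grik1 differed by 0.15, Grik3 by -0.03 and Grik5 by -0.04. The delta receptor gene Grid1, whose product links synapses through cerebellins, stood at 6.47, 7.04 and 6.94 in transgenic and 6.88, 7.14 and 7.0 in wild type lesions (difference -0.19, SE 0.19).

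NMDA receptors need glutamate and a co-agonist and pass calcium, and their make-up shifts from Grin2b to Grin2a as synapses mature. Of 6 measured genes, 4 had higher and 2 lower means, with a median difference of 0.10. Grin2a stood at 7.25, 7.75 and 7.70 in transgenic lesions and 6.88, 7.24 and 7.12 in wild type lesions. The groups were separated by little, since transgenic replicate 1 lay just above wild type replicate 2. The difference was 0.49 (SE 0.19), 1.40-fold higher, at an unadjusted p of 0.035 and an adjusted p of 0.534 in limma. Grin2b stood at 8.55, 9.05 and 8.98 in transgenic and 8.66, 8.59 and 8.70 in wild type lesions, a difference of 0.21 (SE 0.17). In Grin2b the groups overlapped through transgenic replicate 1, and its other probe set differed by 0.27 in the same direction.

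Relative to Grin2b on the same array, Grin2a was at -1.30, -1.30 and -1.27 in transgenic and -1.78, -1.35 and -1.58 in wild type lesions, a difference of 0.28 for a pair also chosen after its values were seen. The transgenic arrays were nearly equal here, whereas the wild type arrays were not. The other NMDA genes differed less. Grin2c had means of 5.86 ± 0.12 in transgenic and 6.05 ± 0.25 in wild type lesions (SD, n = 3), and both of its probe sets were lower, by 0.19 and 0.39. Grin2d differed by 0.04, and Grin3a and Grin3b, which encode glycine-binding subunits that dampen the channel, by 0.16 and -0.09.

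Metabotropic glutamate receptors fall into 3 groups, of which group I excites through phospholipase C and groups II and III inhibit adenylyl cyclase. In group II, Grm2 stood at 8.12, 8.72 and 8.61 in transgenic lesions and 8.0, 7.92 and 8.02 in wild type lesions. All transgenic values lay above the wild type values, which were nearly equal, but replicate 1 only by a small margin. The difference was 0.50 (SE 0.19), 1.41-fold higher, with the smallest unadjusted p of the 41 genes at 0.030 and an adjusted p of 0.518 in limma. Grm3, the group II receptor that astrocytes also express, stood at 8.39, 9.50 and 9.14 in transgenic and 8.95, 9.05 and 9.07 in wild type lesions. The transgenic arrays lay on both sides of the wild type arrays, and the difference was -0.02 with a 95% interval of -0.66 to 0.63. Within arrays, the log2 ratio of Grm2 to Grm3 was -0.27, -0.78 and -0.54 in transgenic and -0.95, -1.13 and -1.05 in wild type lesions, with groups that did not overlap. This pair too was chosen after its values were seen.

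**Figure D4:**
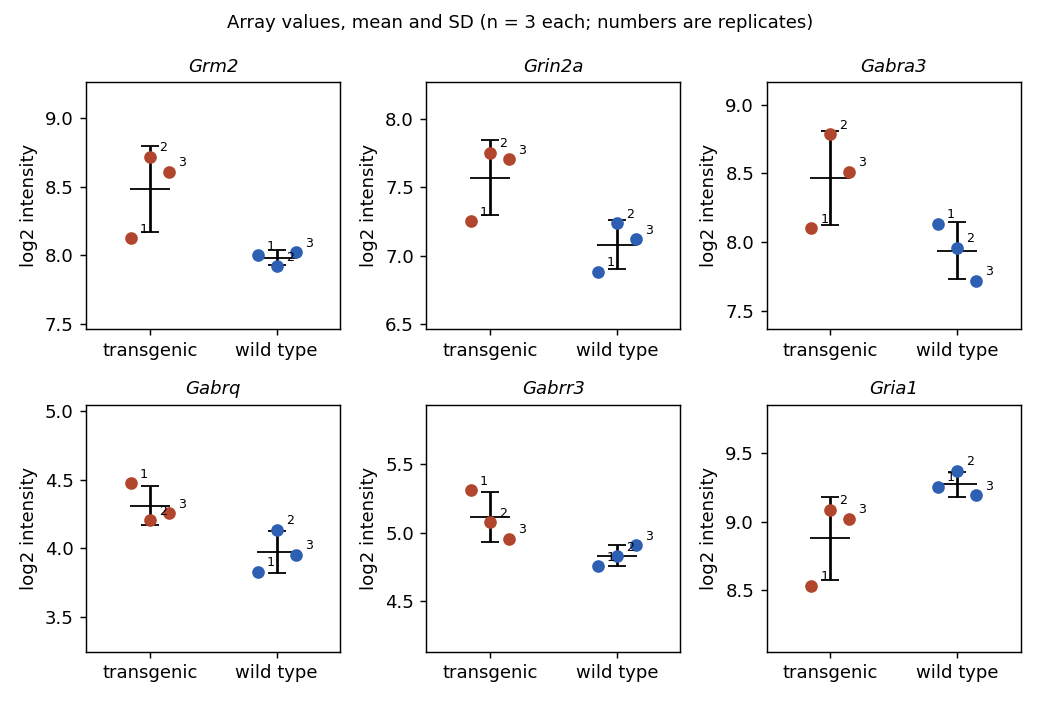
Log2 intensity on each array of the 3 receptor genes with an unadjusted p under 0.05 (Grm2, Grin2a, Gabra3) and of 3 more whose groups did not overlap (Gabrq, Gabrr3, Gria1); bars are the mean and SD of 3 arrays and numbers mark replicates. All panels span 1.8 log2 units. Transgenic replicate 1 is the lowest transgenic point in Grm2, Grin2a, Gabra3 and Gria1.

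The promoters of this group II pair and of Gabra3 are shown because these genes are among those with the smallest p-values or stand beside one of them. RefSeq promoters of build GRCm38.p6 matched 31 of the 41 genes, among them neither Gria1 nor Grin2a. Each line gives the 250 bases before an annotated start on the strand of the gene, 5′ to 3′. Capitals mark GC boxes (GGGCGG or its reverse complement CCGCCC) and TATA boxes (TATAAA or TTTATA), searched on both strands together with the cAMP response element TGACGTCA, which was in none of these windows. These motifs share no base with each other in the windows shown.
Grm2, chr9:106656110-106656359, minus strand: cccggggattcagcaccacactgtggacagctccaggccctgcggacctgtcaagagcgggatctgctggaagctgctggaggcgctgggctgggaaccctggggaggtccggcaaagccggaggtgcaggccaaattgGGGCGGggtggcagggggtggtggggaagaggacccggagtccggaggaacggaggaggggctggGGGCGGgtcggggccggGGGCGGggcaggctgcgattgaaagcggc
Grm3, chr5:9725353-9725602, minus strand: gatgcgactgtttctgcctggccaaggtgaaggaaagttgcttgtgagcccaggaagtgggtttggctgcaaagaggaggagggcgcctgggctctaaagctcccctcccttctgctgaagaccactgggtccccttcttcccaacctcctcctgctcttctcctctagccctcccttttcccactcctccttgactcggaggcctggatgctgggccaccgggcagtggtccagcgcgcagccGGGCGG
Gabra3, chrX:72656920-72657169, minus strand: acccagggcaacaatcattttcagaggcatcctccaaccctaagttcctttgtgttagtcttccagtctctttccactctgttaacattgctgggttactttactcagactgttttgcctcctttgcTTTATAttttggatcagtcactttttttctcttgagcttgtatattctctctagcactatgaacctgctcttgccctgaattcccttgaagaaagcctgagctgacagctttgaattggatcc
The Grm2 window holds 3 GC boxes and the Grm3 window 1, while the Gabra3 window shown holds none and has a TATA box letter match on the opposite strand, well before the start. GC boxes were found in 32.7% of all 32851 promoter windows, TATA boxes in 12.4% and the cAMP response element in 1.55%. Among the 38 windows of the receptor genes, 18 held a GC box (47.4%) and 4 a TATA box (10.5%). Gabra3 has a second annotated start, whose window overlaps the one shown and holds the same TATA box, so these 4 windows belong to 3 genes. Median GC content was 59.6% in the 38 receptor windows and 52.4% in all windows, and its part in the GC box share was not tested. A match is a description of letters only, and the array values do not bear on these motifs.

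Grm5, a group I receptor, stood at 7.49, 8.19 and 8.10 in transgenic and 7.73, 8.24 and 8.24 in wild type lesions (difference -0.14, SE 0.24). Grm5 is abundant in striatal neurons, and its wild type values were higher on the 2 arrays with striatal transcripts. In group III, whose members mostly limit release at nerve endings, 2 genes had higher and 2 lower means, with a median difference of 0.03. Grm8 had the largest difference, 0.28 (SE 0.18), at 5.96, 6.34 and 6.44 in transgenic and 6.04, 6.07 and 5.78 in wild type lesions. Grm4 differed by -0.16 (SE 0.16). Grm6, a receptor of retinal bipolar cells, differed by 0.08 at levels below the median probe set. The 2 probe sets of Grm7 disagreed, with -0.03 for the brighter one and 0.27 for the other.

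GABA-A receptor alpha subunits set where a receptor is placed and how it responds to benzodiazepines. Of 5 measured alpha genes, 4 had higher and 1 lower means, with a median difference of 0.14. Gabra3, on the X chromosome, stood at 8.10, 8.78 and 8.51 in transgenic lesions and 8.13, 7.96 and 7.72 in wild type lesions. Its groups overlapped, since transgenic replicate 1 lay below wild type replicate 1. The difference of 0.53 (SE 0.21), 1.44-fold higher, was the largest of the 41 genes, at an unadjusted p of 0.041 and an adjusted p of 0.543 in limma. Transgenic replicate 2, whose Xist level of 9.14 was like that of the wild type arrays, held the highest Gabra3 value, and the 2 lowest values were on the wild type arrays with striatal transcripts. The part of sex or striatal tissue in the Gabra3 values was not tested. Gabra2 stood at 6.95, 7.91 and 7.66 in transgenic and 7.39, 7.37 and 7.52 in wild type lesions (difference 0.08, SE 0.25), with transgenic values on both sides of the wild type ones. Gabra5, a subunit of receptors outside synapses, differed by 0.22 (SE 0.17).

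Gabra4 and Gabrd encode partners in extrasynaptic receptors that give a steady inhibitory current in the forebrain. Gabrd stood at 6.69, 7.12 and 6.79 in transgenic and 6.10, 6.49 and 6.95 in wild type lesions, a difference of 0.36 (SE 0.24, unadjusted p 0.182). Gabra4 stood at 8.75, 9.21 and 9.09 in transgenic and 8.54, 8.85 and 9.24 in wild type lesions, a difference of 0.14 (SE 0.22). In both genes wild type replicate 1 was lowest of all arrays and wild type replicate 3 was the highest of its group, the order that the striatal list also had among the wild type arrays. This order did not extend to the transgenic arrays, where Gabrd was at 6.69 to 7.12 and the striatal list at 6.21 to 6.66. In wild type replicate 2 they were at 6.49 and 8.17. The part of striatal tissue in Gabrd and Gabra4 was not tested. Without wild type replicate 3, Gabrd was the one gene higher at an unadjusted p under 0.05.

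Beta subunits bind GABA together with alpha subunits, and gamma subunits hold receptors at synapses. Gabrb2 stood at 8.71, 9.50 and 9.42 in transgenic lesions and 8.95, 8.96 and 8.95 in wild type lesions, a difference of 0.26 (SE 0.22). Its wild type SD was 0.005 and its transgenic SD 0.43, and the transgenic arrays fell on both sides. Gabrb1 differed by -0.06 (SE 0.26) with its lowest and highest values both in transgenic lesions, at 8.40 and 9.46. Gabrg1 differed by 0.13 (SE 0.26) and Gabrg3 by 0.13 (SE 0.20).

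The remaining GABA-A genes were mostly dim. Of the 41 genes, 8 had a mean below the median probe set, and 7 of these were GABA-A genes: Gabra6, which marks cerebellar granule cells, Gabre, Gabrp, Gabrq and the 3 rho genes, known from the retina. Gabrq stood at 4.48, 4.20 and 4.26 in transgenic and 3.83, 4.14 and 3.95 in wild type lesions, and Gabrr3 at 5.31, 5.07 and 4.96 in transgenic and 4.76, 4.83 and 4.91 in wild type lesions. Their groups were separated by small margins. The differences were 0.34 (SE 0.15, unadjusted p 0.063) for Gabrq, an X-linked gene, and 0.28 (SE 0.15, unadjusted p 0.102) for Gabrr3. Gabrr2 differed by -0.32 (SE 0.19) and Gabre, also X-linked, by -0.22 (SE 0.18), while Gabra6, Gabrp and Gabrr1 differed by -0.11, -0.03 and -0.09. No detection calls were available to tell such values from background.

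GABA-B receptors need both subunits, Gabbr1 to bind GABA and Gabbr2 to engage the G protein. Gabbr1 stood at 9.76, 10.35 and 10.25 in transgenic and 10.17, 10.25 and 10.28 in wild type lesions (difference -0.11, SE 0.19). Gabbr2 stood at 8.79, 9.47 and 9.26 in transgenic and 8.90, 9.0 and 8.78 in wild type lesions (difference 0.28, SE 0.20). Transgenic replicate 1 was the lowest array in Gabbr1 and next to lowest in Gabbr2, and the groups overlapped in both.

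The proteins that anchor, modulate and supply these receptors were read from 8 lists of 72 different genes, of which 68 were measured. Of these, 36 had higher and 32 lower means, with a median difference of 0.04. None passed the adjusted threshold, and 6 had an unadjusted p under 0.05, of which 2 had higher and 4 lower means, a share near the 8.87% of all probe sets. The largest difference was in Slc12a2, the chloride importer NKCC1, which stood at 8.53, 8.41 and 8.69 in transgenic lesions and 9.72, 8.98 and 9.27 in wild type lesions. The groups did not overlap, and the difference was -0.78 (SE 0.21, adjusted p 0.438 in limma). Slc12a5, the neuronal chloride exporter KCC2, differed by -0.02 (SE 0.17), at 8.50, 8.93 and 8.90 in transgenic and 8.63, 8.91 and 8.85 in wild type lesions. Slc12a2 is also expressed by glia. All 5 oligodendrocyte markers had lower means in transgenic lesions, each with an unadjusted p under 0.05 and none past the adjusted threshold, with a median of -0.91. The part of these cells in the Slc12a2 value was not tested.

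Among AMPA receptor partners, 8 of 16 had higher and 8 lower means. Cacng5 differed by -0.37 (SE 0.14) and Cacng4, which oligodendrocyte precursors also express, by -0.48 (SE 0.20). Cnih3, an auxiliary subunit that slows AMPA channels, differed by 0.63 and was the third of this list with an unadjusted p under 0.05. The 4 oligodendrocyte precursor markers had lower means too, with a median of -0.38, and 2 of them had an unadjusted p under 0.05. The kainate receptor partners Neto1 (-0.19) and Neto2 (-0.11) had their highest values in wild type replicate 3. Of 16 postsynaptic scaffold genes, 9 had higher and 7 lower means with a median of 0.05, and Dlgap1 differed by 0.28 and Homer3 by -0.16.

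GABA-A receptor partners had 7 higher and 3 lower means with a median of 0.10, from Iqsec3 at 0.34 to Plcl1 at -0.39. Of 7 GABA-B receptor partners, 5 had higher means, with a median of 0.29. Kcnj3, a potassium channel that GABA-B receptors open, differed by 0.29 (SE 0.15), and the dim Kctd12b by -0.52 (SE 0.20). Of genes for glutamate release and uptake, the vesicular transporter Slc17a6 stood at 6.56, 6.68 and 7.12 in transgenic and 6.16, 6.41 and 5.69 in wild type lesions (difference 0.71, SE 0.24, adjusted p 0.492 in limma), without overlap. The astrocyte transporter Slc1a3 differed by -0.48 (SE 0.24). Of GABA synthesis and transport genes, 2 had higher and 5 lower means, with Gad2 at -0.31 and Slc32a1 at -0.34. Slc32a1 was highest in wild type replicates 2 and 3, at 8.09 and 8.23, as the striatal list was.

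Of 11 neuronal markers, 10 had higher means in transgenic lesions and the median was 0.22; Elavl2 (0.36, SE 0.14) and Nefl (0.48, SE 0.21) had the smallest p-values. Cortical excitatory markers had higher means in 7 of 7, with a median of 0.22, among them Emx1 (0.51) and Tbr1 (0.38). None of these 7 had an unadjusted p under 0.05 in limma, and the groups overlapped in each. The list mean of transgenic replicate 1, at 7.36, lay below all wild type arrays, at 7.41 to 7.54. Of 8 interneuron markers 5 had higher means, with a median of 0.38: Pvalb at 1.41, Vip at 1.22, Cck at 0.84, Npy at 0.73 and Gad1 at 0.02. All of these but Gad1, 4 genes, had an unadjusted p under 0.05 in limma, beside 4.82% of all probe sets in this direction. Their groups did not overlap, beside 8.54% of all probe sets, and none passed the adjusted threshold. The 3 with lower means were Gad2 (-0.31), Slc32a1 (-0.34) and Sst (-0.15). All 6 striatal genes had lower means, with a median of -1.44, Rgs9 at -1.48 and Gpr6 at -1.41. Of 7 astrocyte markers 6 had lower means and 1, Aldh1l1 (0.08), a higher mean. Sox9 (-0.53) and Slc1a3 differed most clearly of the astrocyte markers, Ermn (-1.18) and Mag (-1.17) of the oligodendrocyte markers and Olig1 (-0.36) and Olig2 (-0.71) of the precursor markers. Microglial and endothelial markers had medians of -0.28 and 0.03, with Tmem119 at -0.26, Csf1r at -0.61, Tek at 0.30 and Kdr at -0.14. Of the 5 microglial markers 4 had lower means and 1, Aif1 (0.18), a higher mean, and none had an unadjusted p under 0.05 in limma. The microglial list mean was 8.89 in wild type replicate 1, but 7.77 and 7.71 in wild type replicates 2 and 3. In transgenic lesions it was 7.71 to 7.99. Over arrays left out, the microglial median ran from -0.61 to -0.04.

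Of the neuronal markers, 10 of 11 had higher means in transgenic lesions, although 1 alone had an unadjusted p under 0.05, none passed the adjusted threshold and the list means overlapped. The list mean had the same order over the 3 transgenic arrays as the receptor mean. Each value was also read relative to the mean of the 11 neuronal markers on its array. This lowers every difference by 0.21, which moves the median of all probe sets to -0.22, and it changes the spread of each gene. Relative to neuronal markers, 30 of the 41 receptor genes had lower and 11 higher means in transgenic lesions, with a median of -0.14. Gria1 was then at -1.14, -1.08 and -1.04 in transgenic lesions and -0.39, -0.43 and -0.62 in wild type lesions. The transgenic arrays, replicate 1 included, now lay close together and clearly below the wild type arrays. The difference was -0.61 (SE 0.18), at an unadjusted p of 0.009 and an adjusted p of 0.50 in limma.

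Grik2 differed by -0.45 (SE 0.17, unadjusted p 0.032) and Grid1 by -0.40 (SE 0.17, unadjusted p 0.046) on this scale, also without overlap. These 3 genes, 7.32% of the 41, were the ones lower at an unadjusted p under 0.05, against 8.39% of all probe sets, and 0 of the 41 were higher, against 0.897%. The groups did not overlap for 7 genes in the lower direction, which added Gria2, Grm5, Grin3b and Gabbr1, and for Grm2 and Grin2a in the higher direction. The shares of all probe sets were 16.3% and 1.42%. Grm2 differed by 0.29 (SE 0.18), Grin2a by 0.27 (SE 0.17) and Gabra3 by 0.31, so the 3 genes with the smallest p-values on the deposited scale no longer had an unadjusted p under 0.05. The neuronal markers come from the same arrays, and the centred differences depend on that list.

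**Figure D5:**
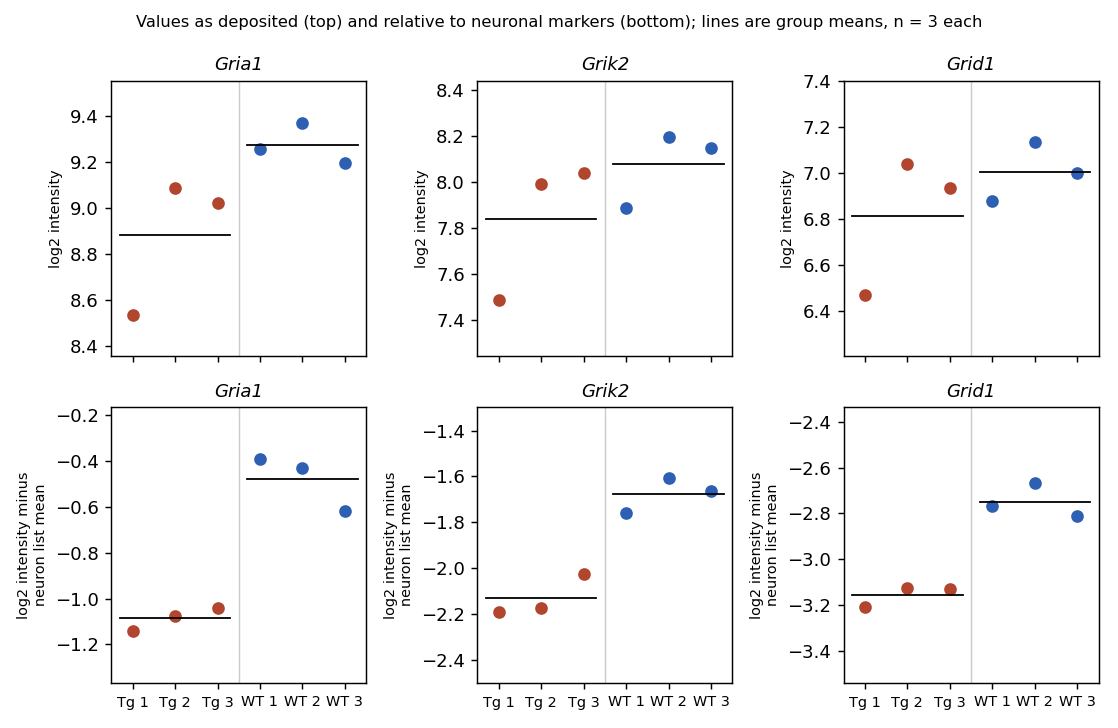
Array values of Gria1, Grik2 and Grid1 as log2 intensity (top) and as log2 intensity minus the mean of 11 neuronal markers on the same array (bottom), transgenic (Tg) in red and wild type (WT) in blue, with group means as lines; all panels span 1.2 log2 units. The low point of transgenic replicate 1 at the top joins the other transgenic points at the bottom.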

How the data were processed

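Expression was measured on 6 arrays, from 3 transgenic and 3 wild type lesions, grouped by the sample titles. Per the submitters' processing notes, the authors ran RMA in Affymetrix Expression Console to make the deposited intensities. Their scale was linear, with array medians of 40.4 to 48.3, so they were turned to log2. The annotation gave 1 gene symbol for 23521 of 41345 probe sets. The build was not given in the sources used here, nor were scan dates and detection calls. No detection filter or batch term was applied.

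Groups were compared with limma (version 3.58.1, R 4.3.3; lmFit and eBayes, two-sided, no covariate) over all probe sets, with Benjamini-Hochberg adjustment. The step was tested on simulated data. The number of arrays limits the precision, and 3 against 3 cannot give an exact permutation p below 0.1. Receptor genes and all lists (119 of 127 listed genes measured) were chosen with earlier results of these data known. Text names 18 fixed receptor genes (13 analysed), up to 12 with an unadjusted p under 0.05, 2 with the smallest p in each class and list, and other genes briefly. The alternatives tried were other normalizations, a filter on dim probe sets, other variance models, array weights, gene means, a replicate block, neuron centring and leaving out each array.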

Additional observations from a re-analysis of the deposited data

How the results depend on the processing

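The 15 alternatives were planned together with the tests. Array weights, which put 7.67 on transgenic replicate 3 and 0.26 to 0.28 on the other transgenic arrays, gave 4 receptor genes past the adjusted threshold (Grm2, Grin2a, Gabra3 and Gabre, 9.76% of 41 beside 6.32% of all probe sets). With these weights 11 were higher and 3 lower at an unadjusted p under 0.05, beside 13.1% and 13% of all probe sets. The transgenic side of these calls rested mostly on replicate 3. No other alternative gave an adjusted call of a receptor gene. Against 3 higher and 0 lower, the unadjusted count was 1 higher without moderation of variances (4.24% of all probe sets), 4 higher and 1 lower after quantile normalization (4.99% and 4.17%), and 0 higher and 3 lower after neuron centring (0.897% and 8.39%). Leaving out 1 array gave 0 to 8 higher, 0 to 1 lower and 0 past the adjusted threshold, beside 2.49% to 6.05%, 2.42% to 6.45% and 0% to 0.81% of all probe sets. With the replicate number as a block, 2 were higher (Grm2 and Grin2a) and 0 lower, beside 3.74% and 3.51% of all probe sets. This replicate block changed no adjusted call. The numbers were not taken to pair the lesions, since same-numbered arrays correlated at 0.01, -0.10 and -0.07 in their deviations from the group means.

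Neuron centring lowers every difference by 0.21. Class medians were then -0.20 for AMPA, -0.24 for kainate, -0.12 for NMDA, -0.40 for Grid1, -0.35 for metabotropic group I, 0.028 for group II, -0.19 for group III, -0.070 for GABA-A alpha, -0.11 for beta, -0.0843 for gamma, -0.061 for the delta, epsilon, pi and theta subunits, -0.31 for rho, -0.13 for GABA-B, -0.23 for all glutamate, -0.0843 for all GABA and -0.14 for all 41 genes. They were -0.11 for GABA-A partners, 0.071 for GABA-B partners, -0.14 for glutamate release and uptake, -0.62 for chloride transport, 0.0105 for neurons, -0.60 for oligodendrocyte precursors and -0.18 for endothelium. With array weights, group III moved to 0.13, chloride transport to -0.26 and endothelium to 0.30. Among brighter probe sets, Gabrd alone stood for its class, at 0.36. Over arrays left out, the median ran from -0.21 to 0.21 for kainate, -0.35 to 0.27 for rho, -0.058 to 0.21 for all glutamate and 0.038 to 0.24 for all GABA genes.

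Some differences changed sign. By the same constant shift, neuron centring gave Gabra2 -0.14, Gabrg1 -0.087, Gabrg3 -0.082, Gria3 -0.14, Gria4 -0.060 and Grin2b -0.0068. Median centring gave Gria2 0.0168 and Grm3 0.038, and array weights gave Gria2 0.19, Grm3 0.10, Gabbr1 0.00145 and Gabrg3 -0.0248. Leaving out an array ran from -0.23 to 0.067 for Gabbr1, -0.12 to 0.36 for Gabra2, -0.31 to 0.21 for Gabrb1, -0.13 to 0.37 for Gabrg1, -0.019 to 0.26 for Gabrg3, -0.16 to 0.17 for Gria2, -0.050 to 0.30 for Gria3, -0.26 to 0.29 for Grm3 and -0.31 to 0.079 for Grm5. Apart from the neuron centring, the cause was not tested. Without detection calls, the limit that background sets on dim genes is unknown.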
